A study of Mus musculus with 9 samples.

Results

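Secreted proteins of the inflammatory response were followed through skeletal stem cells of the periosteum, the same cells after bone transplantation, and the stem cells of the marrow. C3, Saa3, Il1rn and Serpina3f were chosen by their symbols, after their values in these libraries were known, and they are 4 of the 8329 genes in the table. They were picked for how they moved, so their levels are given as a description and none of them was tested. RNA came from sorted CD45-Ter119-CD31-CD51+CD200+ cells of young adult C57BL/6J mice of wild-type genotype, with 3 libraries in each of 3 groups. BM-MSCs were marrow mesenchymal stem cells at steady state (day 0), P-SSCs were periosteal skeletal stem cells at steady state (day 0), and graft P-SSCs were sorted from the periosteum of a donor femur 3 days after it had been implanted under the skin of a recipient mouse. No group carried a transgene, the recipients were anesthetized with ketamine and xylazine for the operation, and the labels name no mark that would separate donor from recipient cells. Replicate 2 of the BM-MSCs and of the P-SSCs carries a label that joins 2 preparations, and each library held RNA from different mice.

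Values were FPKM, the fragments on a gene per kilobase of its length and of the library's total. Library totals ran from 16890241 to 18820888 fragments in BM-MSCs, from 17759541 to 19756156 in P-SSCs and from 17685244 to 21315438 in graft P-SSCs, so 1 fragment is the smallest step any value can take. P-SSC replicate 3 stood apart from the other P-SSC libraries at several of the genes below and is named where it did. Postn, a matrix protein of periosteal cells, lay between 90.65 and 124.7 FPKM in BM-MSCs, between 390.5 and 476.4 in P-SSCs and between 782.2 and 879.1 in graft P-SSCs. Lpl, which marrow stromal cells with adipocyte character express, ran the other way, from 589.7 to 939.2 FPKM in BM-MSCs down to 13.4 to 16.9 in graft P-SSCs.

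Acute-phase proteins are plasma and tissue proteins whose synthesis shifts when interleukin 1, interleukin 6 or bacterial products reach a cell. The liver is their best known source, and fibroblasts, macrophages and marrow stroma also make several of them. C3 is the central component of complement, the protein cascade that coats microbes and damaged cells and recruits phagocytes; its cleavage is the step at which all complement pathways meet. Saa3 is a serum amyloid A made mainly outside the liver in the mouse. Il1rn encodes the interleukin 1 receptor antagonist, which occupies the receptor without signalling. Serpina3f belongs to the mouse Serpina3 cluster, a set of closely related protease inhibitor genes that stand where humans have a single antichymotrypsin gene. Transcription of such genes is known to answer to NF-kB, C/EBP and STAT factors.

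In the GRCm38 coordinates of the deposited table, C3 (ENSMUSG00000024164) spans chr17:57203970-57228136 on the minus strand and Saa3 (ENSMUSG00000040026) spans chr7:46711998-46715700 on the minus strand. Il1rn (ENSMUSG00000026981) spans chr2:24336853-24351494 and Serpina3f (ENSMUSG00000066363) spans chr12:104214544-104221129, both on the plus strand. All 4 are protein-coding. They lie on different chromosomes, so no pair shares a promoter or a neighbourhood. Because Il1rn and Serpina3f moved together across the libraries while C3 and Saa3 did not follow them, the RefSeq promoter windows of all 4 genes (build GRCm38.p6, 250 bases before to 50 after the start) are shown for comparison. RefSeq held 1 window for C3, 1 for Saa3, 3 for Il1rn and 2 for Serpina3f, and the window nearest the 5′ end of the gene in the deposited table is printed. Capitals mark matches to the C/EBP motif TTGCNNAA, the STAT motif TTCNNNGAA or the interferon-response element (by its name), on either strand.
C3, chr17:57228087-57228386, minus strand: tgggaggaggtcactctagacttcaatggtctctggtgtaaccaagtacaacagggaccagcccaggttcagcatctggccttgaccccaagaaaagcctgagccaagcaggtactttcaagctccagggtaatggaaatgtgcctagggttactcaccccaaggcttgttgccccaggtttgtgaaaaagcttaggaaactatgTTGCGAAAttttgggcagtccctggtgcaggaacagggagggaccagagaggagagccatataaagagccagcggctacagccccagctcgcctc
Saa3, chr7:46715627-46715926, minus strand: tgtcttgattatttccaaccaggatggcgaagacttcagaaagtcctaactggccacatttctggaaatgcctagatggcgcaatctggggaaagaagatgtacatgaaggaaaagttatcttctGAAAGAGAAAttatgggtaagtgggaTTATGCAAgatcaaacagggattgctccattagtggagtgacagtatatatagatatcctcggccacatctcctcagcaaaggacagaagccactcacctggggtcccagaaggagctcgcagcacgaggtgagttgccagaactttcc
Il1rn, chr2:24336610-24336909, plus strand: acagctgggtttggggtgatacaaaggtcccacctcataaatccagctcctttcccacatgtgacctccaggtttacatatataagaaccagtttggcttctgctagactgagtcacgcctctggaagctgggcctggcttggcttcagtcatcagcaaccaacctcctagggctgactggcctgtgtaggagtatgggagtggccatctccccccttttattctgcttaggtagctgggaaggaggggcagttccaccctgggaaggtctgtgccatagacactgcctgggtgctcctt
Serpina3f, chr12:104214294-104214593, plus strand: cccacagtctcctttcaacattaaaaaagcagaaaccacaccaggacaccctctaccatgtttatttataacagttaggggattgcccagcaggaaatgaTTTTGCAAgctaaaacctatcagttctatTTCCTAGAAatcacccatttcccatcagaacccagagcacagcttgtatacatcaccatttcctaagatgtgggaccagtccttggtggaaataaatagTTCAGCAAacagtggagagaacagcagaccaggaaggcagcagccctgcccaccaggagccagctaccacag

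The C/EBP motif was found in the windows of C3, Saa3 and Serpina3f, and 10.8% of all 32851 mouse promoter windows of this length held it. The copy in C3 lay 45 to 38 bases before the start, the copy in Saa3 99 to 92 bases before it, and Serpina3f had a copy at 150 to 143 bases and another at 22 to 15. Serpina3f also held the STAT motif at 121 to 113 bases before its start, which 8.3% of all windows held. Saa3 held the interferon-response motif at 125 to 116 bases before its start, against 3.4% of all windows. The Il1rn window had none of these letters, and the NF-kB consensus, present in 4.5% of all windows, was in none of the 4. None of the marked motifs overlapped another, and the matches are letters in a window and say nothing about binding.

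C3 was a P-SSC gene that fell to the marrow level after transplantation. Its FPKM was 323.4, 523.4 and 383.5 in the BM-MSC libraries, 3907, 3905 and 2167 in P-SSCs, and 374.4, 424.6 and 302.3 in graft P-SSCs. Every P-SSC library was above every other library, while the BM-MSC and graft P-SSC libraries overlapped. Group means were 410.1 ± 103, 3327 ± 1004 and 367.1 ± 61.4 FPKM (SD, n = 3 each), which puts the mean of P-SSCs 8.11 times above BM-MSCs and 9.06 times above graft P-SSCs. In P-SSCs, C3 was among the most abundant transcripts of the table, at ranks 6 to 9 of 8329 genes, and in the other groups it ranked between 28 and 67. P-SSC replicate 3 had the lowest C3 of its group and still held 68633 fragments, more than any library outside the group, where the highest was 16413. The order of the levels was therefore P-SSC first, with BM-MSC and graft P-SSC not separated by their spread.

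Saa3 ran almost opposite to C3. It was at 0, 1.508 and 0 FPKM in P-SSCs, at 11.2, 39.35 and 12.75 in BM-MSCs, and at 83.4, 137.5 and 94.95 in graft P-SSCs. No libraries overlapped between any of the groups, so the order was graft P-SSC, then BM-MSC, then P-SSC. The means were 105.3 ± 28.5 FPKM in graft P-SSCs, 21.1 ± 15.8 in BM-MSCs and 0.503 ± 0.871 in P-SSCs (SD, n = 3 each). The mean in graft P-SSCs was 209 times that in P-SSCs and 4.99 times that in BM-MSCs. All 29 Saa3 fragments of the P-SSC group came from replicate 2, a joined preparation, while replicates 1 and 3 had 0 fragments, a count that allows up to 3. In fragments summed over libraries the first ratio was 226, with a 95% exact counting interval of 158 to 338 that covers counting error only. Without P-SSC replicate 2 the ratio of mean FPKM was at least 736, with the empty group set at 3 fragments per library. In BM-MSCs, replicate 2 also had the highest Saa3, with 802 fragments against 205 and 252 in the other libraries. Without it the mean FPKM of graft P-SSCs was 8.79 times that of BM-MSCs.

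Il1rn was a marrow gene, and it stayed low in the graft. BM-MSC libraries gave 144.4, 106.3 and 368 FPKM, P-SSC libraries 0.0349, 1.943 and 0, and graft P-SSC libraries 0.663, 2.04 and 1.037. Marrow stood apart from both periosteal groups, and the P-SSC and graft P-SSC libraries overlapped. The means were 206.2 ± 141, 0.659 ± 1.11 and 1.247 ± 0.712 FPKM (SD, n = 3 each), so BM-MSCs were 313 times above P-SSCs and 165 times above graft P-SSCs. Of the 51 Il1rn fragments in P-SSCs, 50 were in replicate 2, the library that also held all of the Saa3 fragments of this group. BM-MSC replicate 3 carried 9729 Il1rn fragments, against 3535 and 2899 in the other marrow libraries. Without that library the ratios were 190 against P-SSCs and 101 against graft P-SSCs. Without P-SSC replicate 2 the P-SSC group was left with 1 fragment, and BM-MSCs had 11611 times its rate, with a 95% exact counting interval of 2084 to 458646.

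Serpina3f showed the widest separation between marrow and periosteum among the 4 genes when all libraries were kept. Against P-SSCs that order rested on P-SSC replicate 2. Without it BM-MSCs had 6449 times the rate of P-SSCs for Serpina3f and 11611 times for Il1rn. BM-MSC libraries were at 141.1, 138.3 and 181.2 FPKM, close to each other, with a mean of 153.5 ± 24 (SD, n = 3). P-SSC libraries were at 0, 0 and 0.0486 FPKM, and graft P-SSC libraries at 0.3395, 0.065 and 0.1286. In fragments, the marrow libraries held 5160, 5634 and 7160, the P-SSC libraries 0, 0 and 2, and the graft P-SSC libraries 13, 3 and 5. Summed over libraries, the rate in BM-MSCs was 9404 times that in P-SSCs, with a 95% exact counting interval of 2603 to 77654, which covers counting error only. Against graft P-SSCs the rate was 903 times higher (590 to 1458). Graft P-SSCs had 10.4 times the rate of P-SSCs, with an interval of 2.55 to 91.7 on 21 and 2 fragments, and these groups did not overlap, although the highest graft library held 13 fragments. Single libraries moved these ratios: without graft P-SSC replicate 1 the rate in BM-MSCs was 1634 times that in graft P-SSCs, and graft P-SSCs had 5.76 times the rate of P-SSCs (1.15 to 55.6). Without P-SSC replicate 1 the rate in BM-MSCs was 6117 times that in P-SSCs. P-SSC replicate 3 held both fragments of its group, and without it P-SSCs were set at 3 fragments per library. The mean FPKM was then at least 2073 times that of P-SSCs in BM-MSCs and at least 2.4 times in graft P-SSCs. Graft P-SSCs had 6.78 times the rate of P-SSCs without P-SSC replicate 1 and 7.15 times without P-SSC replicate 2.

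**Figure D1:**
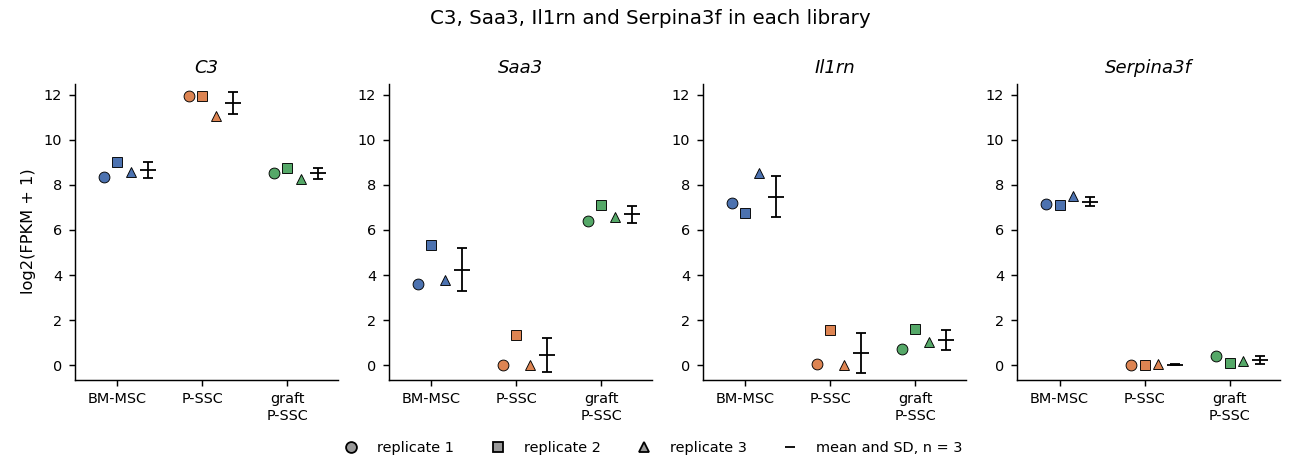
Level of C3, Saa3, Il1rn and Serpina3f as log2(FPKM + 1) on the vertical axis in each of the 9 libraries, grouped on the horizontal axis; markers are libraries and bars the mean and SD of 3. C3 peaked in P-SSCs (mean 11.65), Saa3 in graft P-SSCs (6.70), and Il1rn (7.49) and Serpina3f (7.26) in BM-MSCs.

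On the log2(FPKM + 1) scale, which understates the change of low genes, graft P-SSCs minus P-SSCs gave −3.14 for C3, 6.26 for Saa3, 0.59 for Il1rn and 0.21 for Serpina3f. P-SSCs minus BM-MSCs gave 2.99 for C3, −3.80 for Saa3, −6.95 for Il1rn and −7.24 for Serpina3f. Graft P-SSCs minus BM-MSCs gave −0.14 for C3, 2.46 for Saa3, −6.36 for Il1rn and −7.03 for Serpina3f. These comparisons share libraries, so the 3 sets of differences are not independent of each other. The small differences were not stable in sign: C3 between graft and marrow was 0.05 without BM-MSC replicate 2, and Serpina3f between graft and P-SSCs was −0.02 after quantile normalization. Across the 1948 genes tested, the median difference was 0.26 for graft P-SSCs minus P-SSCs and 0.28 for graft P-SSCs minus BM-MSCs, and median-of-ratios scaling moved these medians to 0.02 and 0.08. The members' larger differences were far outside that shift.

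The 4 genes did not form 1 group in these cells. Over the 9 libraries, Pearson's r between log2(FPKM + 1) values was 0.98 for Il1rn with Serpina3f and −0.86 for C3 with Saa3. The other pairs lay between −0.50 and 0.20. Each of these values describes 9 points from 3 groups that share their libraries. Levels between genes depended on the length used: the deposited FPKM correspond to a mean transcript length of 1666 bases for C3, whose longest transcript has 5136, and to 1083 of 2200 for Saa3, 1449 of 2554 for Il1rn and 2165 of 2248 for Serpina3f. In BM-MSCs the deposited order of mean levels was C3, Il1rn (206.2), Serpina3f (153.5) and Saa3. By the longest transcript it became Serpina3f (147.9 FPKM), C3 (133), Il1rn (117) and Saa3 (10.4). In P-SSCs C3 stayed first on both scales, with 1079 FPKM by its longest transcript against at most 1.102 for any library of the other 3 genes.

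Sequence shared with other genes differed among the members. Of the distinct windows of 50 bases in the annotated transcripts, 0% of those in C3 were also in the transcripts of another gene, 0.1% in Il1rn, 3.6% in Saa3 and 10.6% in Serpina3f. For Serpina3f the sharing was with its own cluster, led by Serpina3g (6.0%), Serpina3e-ps (4.1%) and Serpina3i (3.9%). Its level is therefore uncertain to the extent that the counting split reads among these copies. Serpina3m, another gene of the cluster, had its own reads in the same libraries, at 12.2, 20.8 and 22.2 FPKM in BM-MSCs, 3.786, 0.1698 and 0.3491 in P-SSCs and 0.5116, 0.0849 and 0.5373 in graft P-SSCs.

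The genes whose pattern over the 9 libraries was most like that of each member were found by the same r, among 1947 others that passed the filter. For C3 they were Mrln (r = 0.989), Slc6a2, Serpinf1, C1qtnf1 and Egflam (0.982), and C1qtnf1 averaged 34.25 FPKM in BM-MSCs, 268.1 in P-SSCs and 32.9 in graft P-SSCs. For Saa3 they were Pfkl (r = 0.98), a glycolytic enzyme, Snai1, Cit, Plk1 and Cenpn (0.958). Plk1, a mitotic kinase, averaged 27.9 FPKM in BM-MSCs, 0.0145 in P-SSCs and 150.2 in graft P-SSCs. For Il1rn they included Pcdhb7 (r = 0.993), B3gnt7, Sema5a and Cd79b (0.983), the last a B cell receptor chain. For Serpina3f they included Tspan8 (r = 0.999), Ccdc113, Tmem176a and Slc26a7 (0.995), with Tmem176a at means of 2609, 41.8 and 41.2 FPKM in BM-MSCs, P-SSCs and graft P-SSCs. An r of 0.9 or more was reached by 31 genes for C3, 46 for Saa3, 88 for Il1rn and 96 for Serpina3f, so a high r was common among genes that split the groups in the same way.

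The other genes of these pathways were read from 6 lists that hold 266 genes besides the members. Of these, 44 were in the table and 28 passed the filter of at least 1 FPKM in at least 3 of 9 libraries. Genes outside the table were not analysed here, and those that did not pass the filter were not tested. Each gene was compared with limma on log2(FPKM + 1), with p-values adjusted over all genes by the Benjamini-Hochberg method; genes under 0.05 were called. For graft P-SSCs minus P-SSCs, 8 of the 28 were called higher and 5 lower, where 22.6% of all 1948 genes tested were called higher and 11.5% lower. For P-SSCs minus BM-MSCs, 9 were called higher and 10 lower, against 9.8% and 14.4% of all genes. For graft P-SSCs minus BM-MSCs, 10 were called higher and 12 lower, against 25.7% and 16.2%. The 10 and the 12 lower calls both include Fcnb, Colec11, Serpina3m and Orm1. Those genes passed the filter through the marrow libraries alone, so their direction was fixed and their calls are no evidence. A gene that passed the filter only through the libraries where it is high had to differ, so these counts describe the genes that passed and do not extend to the lists.

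Complement is usually ordered into recognition molecules, the C3 step, receptors, and regulators that stop the cascade. Of the 6 complement genes that passed the filter, Fcnb and Colec11 did so through the marrow libraries alone and are left out of the counts against BM-MSCs. In P-SSCs minus BM-MSCs, Serping1, Itgb2 and C5ar1 fell and Cd59a was not called, and in graft P-SSCs minus BM-MSCs all 4 fell. The shares of all genes called lower were 14.4% and 16.2%. In graft P-SSCs minus P-SSCs, 1 rose and 2 fell, against 22.6% and 11.5% of all genes.

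Fcnb, a ficolin of myeloid cells, was at 22.5, 8.546 and 52.2 FPKM in BM-MSCs and at most 0.234 in any periosteal library. Colec11, a collectin that binds microbial sugars, was at 31.15, 42.9 and 8.111 FPKM in BM-MSCs and at most 0.3843 elsewhere. The marrow libraries did not overlap with the others for either gene, and no test is given because the filter had fixed the direction. C8a, a component of the lytic complex that acts after C3, was listed at 0 in every library.

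Serping1, the C1 inhibitor, was at 7633, 9554 and 6603 FPKM in BM-MSCs, 4863, 5567 and 3874 in P-SSCs and 495.3, 480.1 and 481.9 in graft P-SSCs. It fell by 3.28 ± 0.18 (log2, SE) in graft P-SSCs against P-SSCs (adjusted p = 2.63e-06), as C3 was lower there. Its smaller fall from BM-MSCs to P-SSCs, −0.73 ± 0.18 (adjusted p = 0.0151), lost the call under median-of-ratios scaling (adjusted p = 0.119), under quantile normalization (−0.17, adjusted p = 0.195), with the libraries of the comparison alone (adjusted p = 0.115) and without BM-MSC replicate 2 (adjusted p = 0.0531). Cd59a, which blocks the lytic pore on the cell's own membrane, lay between 7.079 and 8.618 FPKM in P-SSCs and between 0.9199 and 1.625 in graft P-SSCs, a difference of −1.91 ± 0.30 (adjusted p = 0.00115). C5ar1, the receptor for the fragment C5a, was at 0 in all P-SSC libraries, at 1.668, 1.681 and 1.672 in graft P-SSCs and between 9.514 and 12.2 in BM-MSCs. It rose by 1.42 ± 0.24 in the graft (adjusted p = 0.00183). Itgb2, the shared chain of the receptors that bind cleaved C3, was at 9.154, 12.5 and 22.8 FPKM in BM-MSCs, 0, 2.13 and 0 in P-SSCs and 2.138, 2.531 and 2.539 in graft P-SSCs; its difference between graft and P-SSCs was 1.22 ± 0.49 (adjusted p = 0.0865). Its fall from BM-MSCs to graft P-SSCs, −2.12 ± 0.49 (adjusted p = 0.00782), was not called with a pseudocount of 0.1 (adjusted p = 0.1) or with limma voom on recovered fragments (adjusted p = 0.0756).

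**Figure D2:**
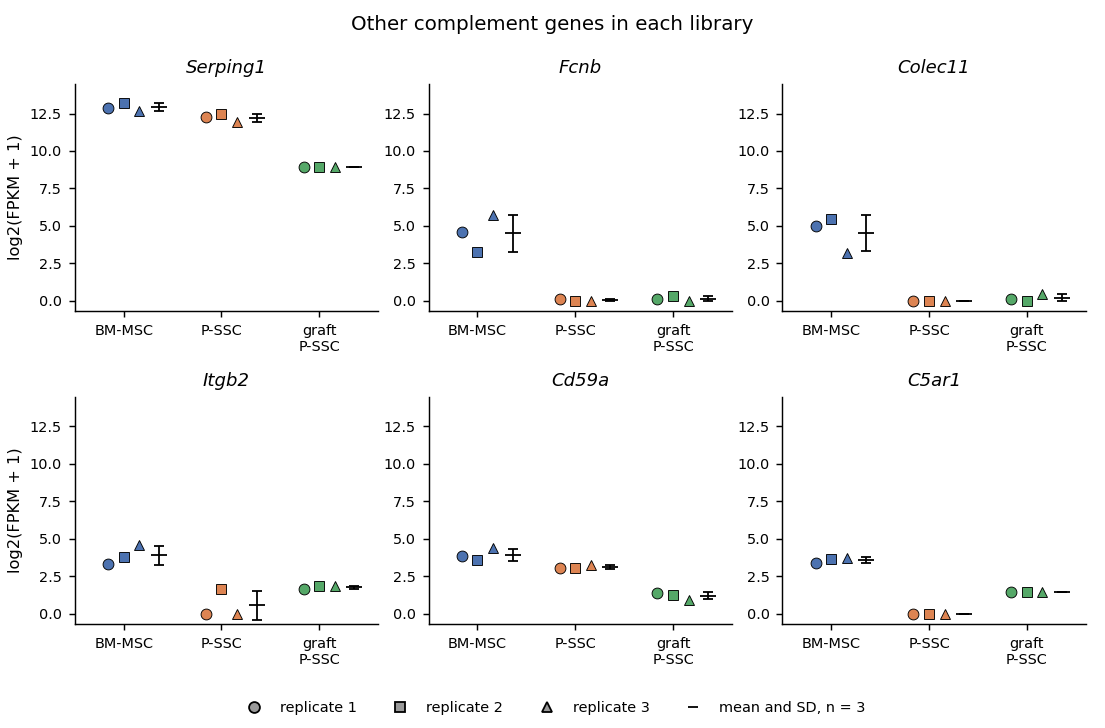
Level of 6 other complement genes as log2(FPKM + 1) on the vertical axis in each library, grouped on the horizontal axis; markers are libraries and bars the mean and SD of 3. Serping1 dropped from 4768 FPKM in P-SSCs to 485.8 in graft P-SSCs on average, and Fcnb and Colec11 were near 0 in both periosteal groups.

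Among other acute-phase genes 4 passed the filter, of which 1 was called higher in graft P-SSCs than in P-SSCs, against 22.6% of all genes. Ptx3, a pentraxin that fibroblasts and macrophages secrete, followed Saa3 into the graft: it was at 7.948, 3.342 and 5.402 FPKM in BM-MSCs, 1.412, 2.702 and 18.8 in P-SSCs and 161.1, 155.3 and 38.3 in graft P-SSCs. It rose by 4.15 ± 0.79 against P-SSCs (adjusted p = 0.00315) and by 3.99 ± 0.79 against BM-MSCs (adjusted p = 0.00336). P-SSC replicate 3 was its highest and graft P-SSC replicate 3 its lowest library within their groups. The rise against P-SSCs was 3.54 without P-SSC replicate 1, 5.06 without P-SSC replicate 3 and 4.83 without graft P-SSC replicate 3, and the rise against BM-MSCs was 4.66 without the latter. Trf, Orm1 and Serpina3m were highest in marrow, as Il1rn and Serpina3f were. Trf, the iron carrier transferrin, is listed as a negative acute-phase gene, whose synthesis falls in that response, while Orm1 is listed as a positive one. Trf was at 194.8, 160.7 and 134.8 FPKM in BM-MSCs and at most 4.448 in the periosteal libraries, a difference of −5.20 ± 0.30 for P-SSCs (adjusted p = 2.57e-06). Orm1, the plasma protein orosomucoid, was between 9.397 and 13.03 FPKM in BM-MSCs and at most 0.9797 elsewhere. Orm1 and Serpina3m passed the filter through the marrow libraries, so no test of their marrow level is given. Serpina1a and Serpina1b, antitrypsin genes of the liver, were at 1.968 and 1.488 FPKM in BM-MSC replicate 1 and at 0 in the other libraries. Fga was listed at 0 in every library, and Fgb and Ahsg reached at most 0.0616 and 0.0834 FPKM.

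The interleukin 1 pathway was thinly covered, with Irak3 and Tab2 as the genes tested beside Il1rn. Irak3, an inhibitory kinase of the receptor complex, was at 12.7, 5.316 and 6.098 FPKM in BM-MSCs, 18.0, 18.25 and 53.0 in P-SSCs and 31.7, 32.7 and 29.45 in graft P-SSCs. It rose by 1.67 ± 0.43 from BM-MSCs to P-SSCs (adjusted p = 0.0183), a call lost with the libraries of the comparison alone (adjusted p = 0.0716), without BM-MSC replicate 2 (0.0693) and without BM-MSC replicate 3 (0.066). It also rose by 1.93 ± 0.43 from BM-MSCs to graft P-SSCs (adjusted p = 0.00668). The receptor's antagonist was thus high in marrow where this intracellular inhibitor was low. Tab2, an adaptor of the TAK1 kinase, averaged between 2.752 and 3.834 FPKM in the 3 groups, and none of its differences was called by limma, the smallest adjusted p being 0.327.

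Of the other serpins and proteases, 4 passed the filter, and 2 were called lower and 1 higher in graft P-SSCs than in P-SSCs, against 11.5% and 22.6% of all genes. Serpinf1, which encodes pigment epithelium-derived factor, had the pattern of C3: 1485, 2011 and 1524 FPKM in BM-MSCs, 5963, 6461 and 4514 in P-SSCs and 1857, 1930 and 1938 in graft P-SSCs. It rose by 1.75 ± 0.18 from BM-MSCs to P-SSCs (adjusted p = 6.92e-05) and fell by 1.55 ± 0.18 in the graft (adjusted p = 1.99e-04). Serpine2, an inhibitor of thrombin and plasminogen activators, was at 7448, 5799 and 5126 FPKM in BM-MSCs, 359.7, 308.3 and 345.6 in P-SSCs and 37.7, 31.4 and 32.8 in graft P-SSCs. It fell at each step, with a difference of −4.16 ± 0.16 from BM-MSCs to P-SSCs (adjusted p = 2.22e-07) and of −3.28 ± 0.16 from P-SSCs to the graft (adjusted p = 2.07e-06). Serpinb1a, which inhibits neutrophil elastase inside cells, went the other way, from between 17.96 and 33.6 FPKM in BM-MSCs to between 64.7 and 106.4 in P-SSCs and between 191.5 and 206 in graft P-SSCs. Its rise in the graft was 1.33 ± 0.26 (adjusted p = 0.0039).

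**Figure D3:**
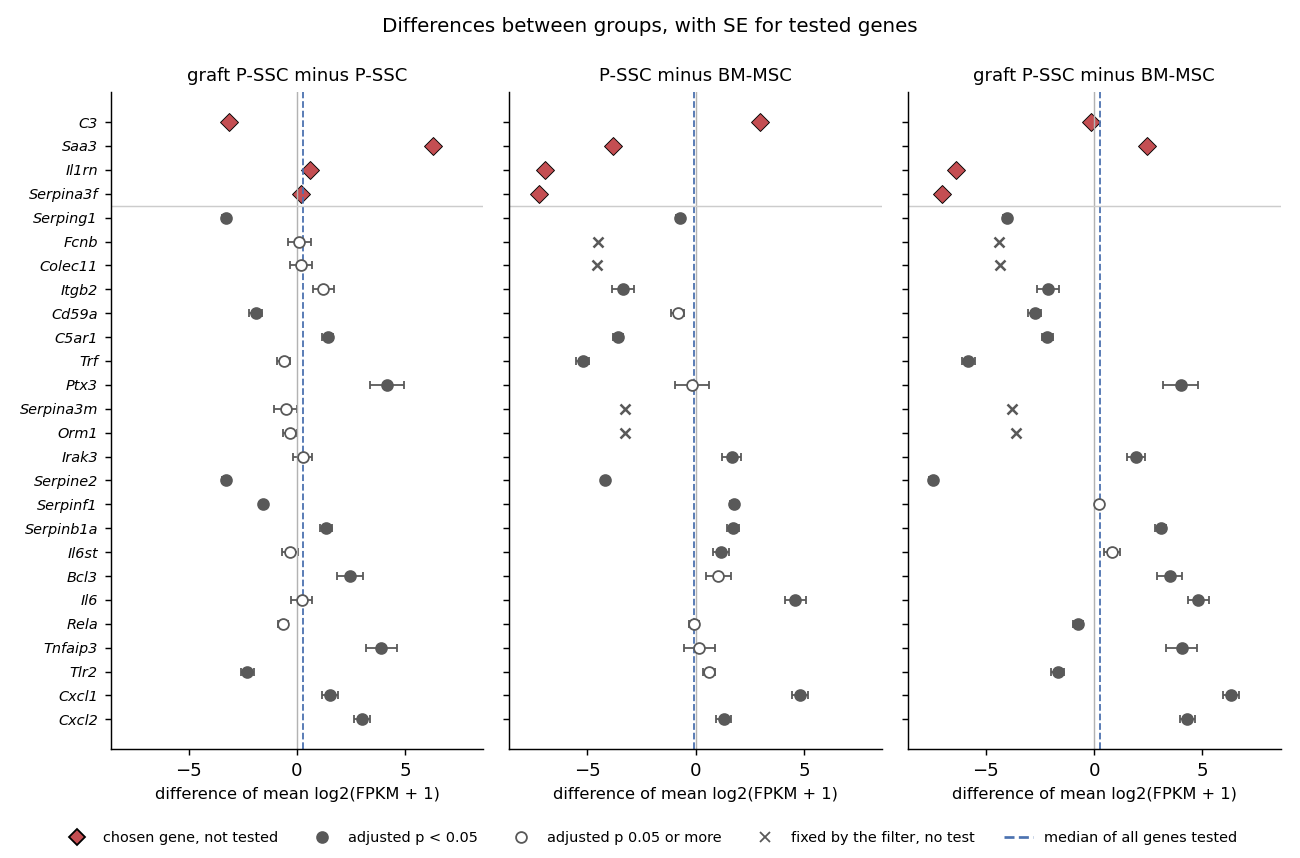
Difference of mean log2(FPKM + 1) on the horizontal axis for the 4 members (diamonds, not tested) and 22 other genes of the lists (circles with SE, smaller than the marker where no bar shows; filled where adjusted p is under 0.05; crosses, with no test, against BM-MSCs for the 4 genes that passed the filter through marrow alone), 1 panel per comparison; the dashed line is the median of all 1948 genes tested. C3 and Saa3 lie on opposite sides in the first panel (−3.14 and 6.26), and Il1rn and Serpina3f lie near −7 in the second.

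Il6, the main inducer of the hepatic response, was at 0.604, 0.792 and 2.022 FPKM in BM-MSCs, 92.8, 60.0 and 20.3 in P-SSCs and 55.35, 62.5 and 52 in graft P-SSCs. It rose by 4.59 ± 0.49 from BM-MSCs to P-SSCs (adjusted p = 8.44e-05; 5.20 without P-SSC replicate 3), while graft and P-SSC libraries overlapped (difference 0.21 ± 0.49, adjusted p = 0.769). Saa3 was near 0 in those P-SSC libraries, and its relation to Il6 was not tested. Il6st, the signalling chain of the interleukin 6 receptor, averaged 55.5 FPKM in BM-MSCs, 123.9 in P-SSCs and 93.4 in graft P-SSCs, and its rise of 1.18 ± 0.37 in P-SSCs (adjusted p = 0.0418) was lost under 10 of 17 alternatives, among them fitting the libraries of the comparison alone (adjusted p = 0.114) and leaving out any library except BM-MSC replicate 3 or P-SSC replicate 2 (adjusted p from 0.058 to 0.125).

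Of the 10 inducers tested, 3 were called higher in graft P-SSCs than in P-SSCs and 1 lower, near the 22.6% and 11.5% of all genes, with a median difference of 0.43 beside 0.26. Bcl3, a nuclear partner of NF-kB, was at 93.0, 81.7 and 30.6 FPKM in graft P-SSCs against 5.477, 9.691 and 20.9 in P-SSCs, a rise of 2.45 ± 0.58 (adjusted p = 0.0102). Tnfaip3, which ends NF-kB signalling, was at 52.8, 55.9 and 39.8 against 0.8385, 0.7502 and 11.1, a rise of 3.88 ± 0.72 (adjusted p = 0.00263; 4.80 without P-SSC replicate 3). P-SSC replicate 3, the library with the lowest C3 of its group, had the highest Bcl3, Tnfaip3, Ptx3 and Irak3 among P-SSCs. Without it, the call of Il6st was lost (adjusted p = 0.0825), no other call of a named gene was, and C3 differed by −3.42 between graft P-SSCs and P-SSCs. Tlr2, a receptor for bacterial lipoproteins, fell, from between 18.98 and 31.5 FPKM in P-SSCs to between 3.621 and 4.544 in the graft (−2.30 ± 0.29, adjusted p = 3.43e-04). Rela, the transactivating subunit of NF-kB, was between 23 and 37.9 FPKM in graft P-SSCs and between 45.4 and 54.8 in BM-MSCs; its fall (−0.73 ± 0.23, adjusted p = 0.0306) was lost without BM-MSC replicate 2 (adjusted p = 0.0907), BM-MSC replicate 3 (0.063), graft P-SSC replicate 2 (0.084) or graft P-SSC replicate 3 (0.119), and with a replicate block (0.0562).

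Of 24 inflammatory chemokines, 3 were in the table and 2 were tested, Cxcl1 and Cxcl2, which draw neutrophils. Both were called higher in P-SSCs than in BM-MSCs and in graft P-SSCs than in P-SSCs, where 9.8% and 22.6% of all genes were. Cxcl1 was at 2.977, 3.161 and 3.92 FPKM in BM-MSCs, 209.1, 137.1 and 60.8 in P-SSCs and 379.8, 336.6 and 321.3 in graft P-SSCs. It rose by 4.81 ± 0.37 from BM-MSCs to P-SSCs (adjusted p = 1.44e-05) and by 1.51 ± 0.37 in the graft (adjusted p = 0.0114), the latter call being lost under median-of-ratios scaling (adjusted p = 0.0514). Cxcl2 was at most 1.131 FPKM in BM-MSCs, between 2.016 and 3.394 in P-SSCs and between 20.9 and 34.8 in graft P-SSCs. Its rise in the graft was 3.01 ± 0.36 (adjusted p = 2.4e-04). The rise of Cxcl2 from BM-MSCs to P-SSCs, 1.29 ± 0.36 (adjusted p = 0.0262), was lost under 7 of 17 alternatives, including without BM-MSC replicate 1 (adjusted p = 0.0662), BM-MSC replicate 2 (0.0744), P-SSC replicate 1 (0.0789) or graft P-SSC replicate 2 (0.0522), and with a replicate block (0.0509).

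**Figure D4:**
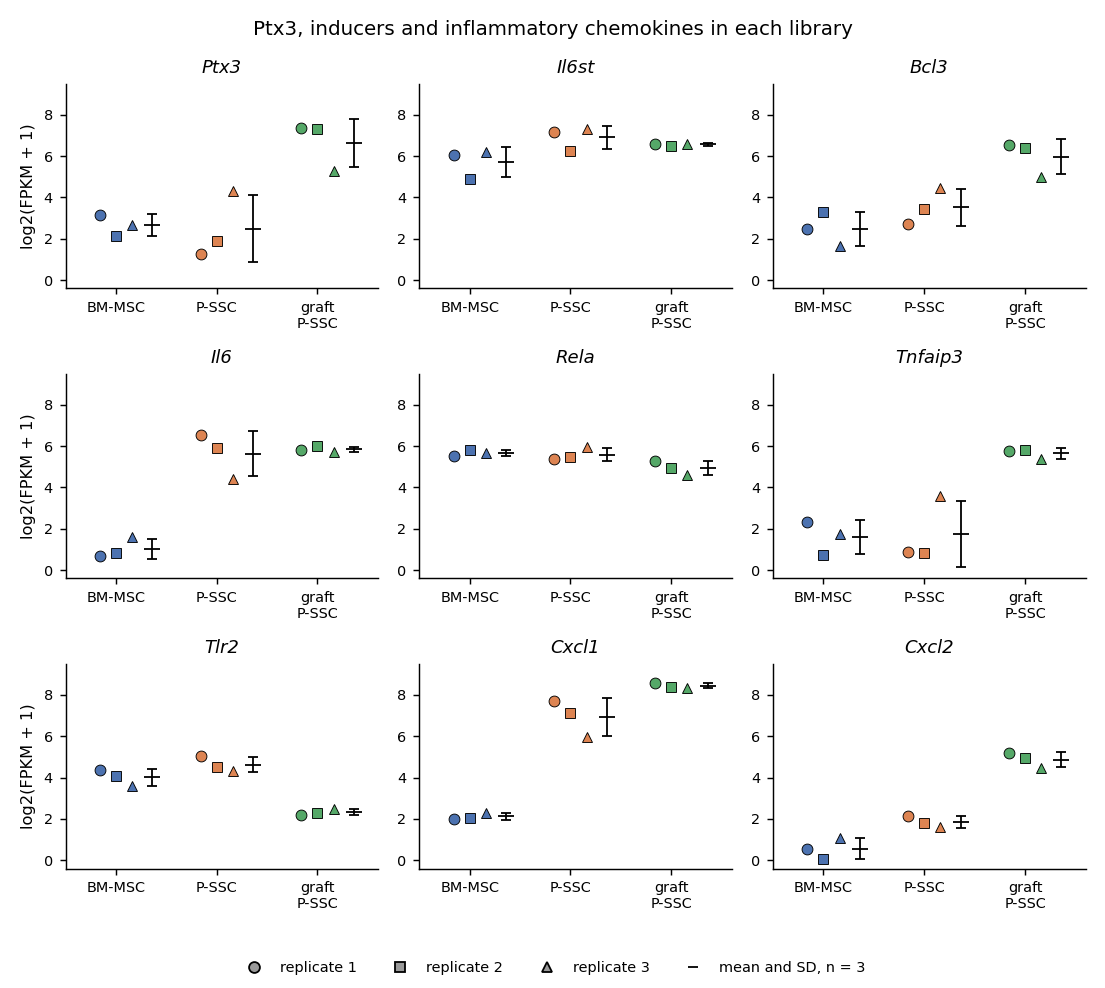
Level of Ptx3, 6 inducers or regulators and 2 chemokines as log2(FPKM + 1) on the vertical axis in each library, grouped on the horizontal axis; markers are libraries and bars the mean and SD of 3. Ptx3, Bcl3, Tnfaip3, Cxcl1 and Cxcl2 were highest in graft P-SSCs, and Il6 was above 20 FPKM in every periosteal library and at most 2.022 in marrow.

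Cells of blood lineages also make some of these transcripts, so their markers were read in the same libraries, although the sort had removed cells with CD45 or Ter119. In bulk RNA, more cells of a type and more RNA per cell cannot be told apart. The leukocyte marker Ptprc was between 0.326 and 1.353 FPKM in BM-MSCs, 0 in P-SSCs and between 0.113 and 0.3113 in graft P-SSCs. Neutrophil markers (2 of 12 in the table, Mpo and Cxcr2) summed to 292.9, 0.928 and 4.912 FPKM in BM-MSCs, 0 in P-SSCs and 1.029 to 1.607 in graft P-SSCs. The sum of BM-MSC replicate 1 was Mpo, at 292.2 FPKM, a gene at 0 in the other marrow libraries, whose Il1rn was 106.3 and 368 FPKM. Cxcr2 was at 0.6296, 0.928 and 4.912 FPKM in the 3 marrow libraries and so was highest in replicate 3, where Il1rn was highest as well. The erythroid gene Hba-a2 was likewise highest there, at 2201 FPKM against 748.4 and 617.9, as was Cd79b at 7.179 against 3.337 and 3.197. Lyz2 (142.8, 539.5 and 608.4 FPKM), Itgb2 and Ighm were also highest in replicate 3. Other markers were not: Adgre1 was at 3.174, 2.716 and 0.0342 FPKM and Csf1r at 2.68, 0.2232 and 0 in the same libraries, and Ptprc, at 0.326, 1.353 and 1.188, was highest in replicate 2. Serpina3f differed much less among these libraries, between 138.3 and 181.2 FPKM. The part of blood cell RNA in the level of Il1rn was not tested.

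Macrophage or monocyte markers (4 of 12, Lyz2, Csf1r, Adgre1 and Mrc1) summed to between 149.3 and 608.4 FPKM in BM-MSCs, between 14.5 and 72.3 in P-SSCs and between 32.7 and 92.2 in graft P-SSCs. Most of each sum was Lyz2, at 14.2, 71.9 and 51.4 FPKM in P-SSCs and 49.4, 25.5 and 84.0 in graft P-SSCs. These groups overlapped (difference 0.32 ± 0.71 by limma, adjusted p = 0.759). Csf1r alone was between 0.2481 and 0.8349 FPKM in P-SSCs and between 5.574 and 6.308 in graft P-SSCs, and Adgre1 was at 0 in all P-SSC libraries and between 0.9067 and 2.75 in the graft. Saa3 and C5ar1 were higher in the graft as well, and their relation to these markers was not tested. Within P-SSCs, replicate 2 held the Saa3 and Il1rn fragments, and it was also the library with Itgb2 at 2.13 FPKM and with the highest Lyz2, 71.9 against 14.2 and 51.4. Other markers were not highest there: Csf1r (0.2481, 0.4074 and 0.8349 FPKM) and Hba-a2 (2.125, 7.092 and 20.2) peaked in replicate 3. Ighm (24.6, 14.44 and 5.707) peaked in replicate 1, and Ptprc, Adgre1, Mrc1, Mpo and Cxcr2 were at 0 in all P-SSC libraries. Ighm, the heavy chain of immunoglobulin M, was between 9.206 and 31.1 FPKM in BM-MSCs, between 5.707 and 24.6 in P-SSCs and at most 0.5672 in the graft. With it, B or plasma cell markers (2 of 8) summed to at most 0.6234 FPKM in graft P-SSCs, and erythroid Hba-a2 (1 of 8) was between 2.125 and 20.2 FPKM in P-SSCs and at most 3.669 in the graft. The hepatocyte markers in the table (2 of 8) were at or near 0, and the endothelial and osteoblast lists had no gene in the table and were not used here.

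**Figure D5:**
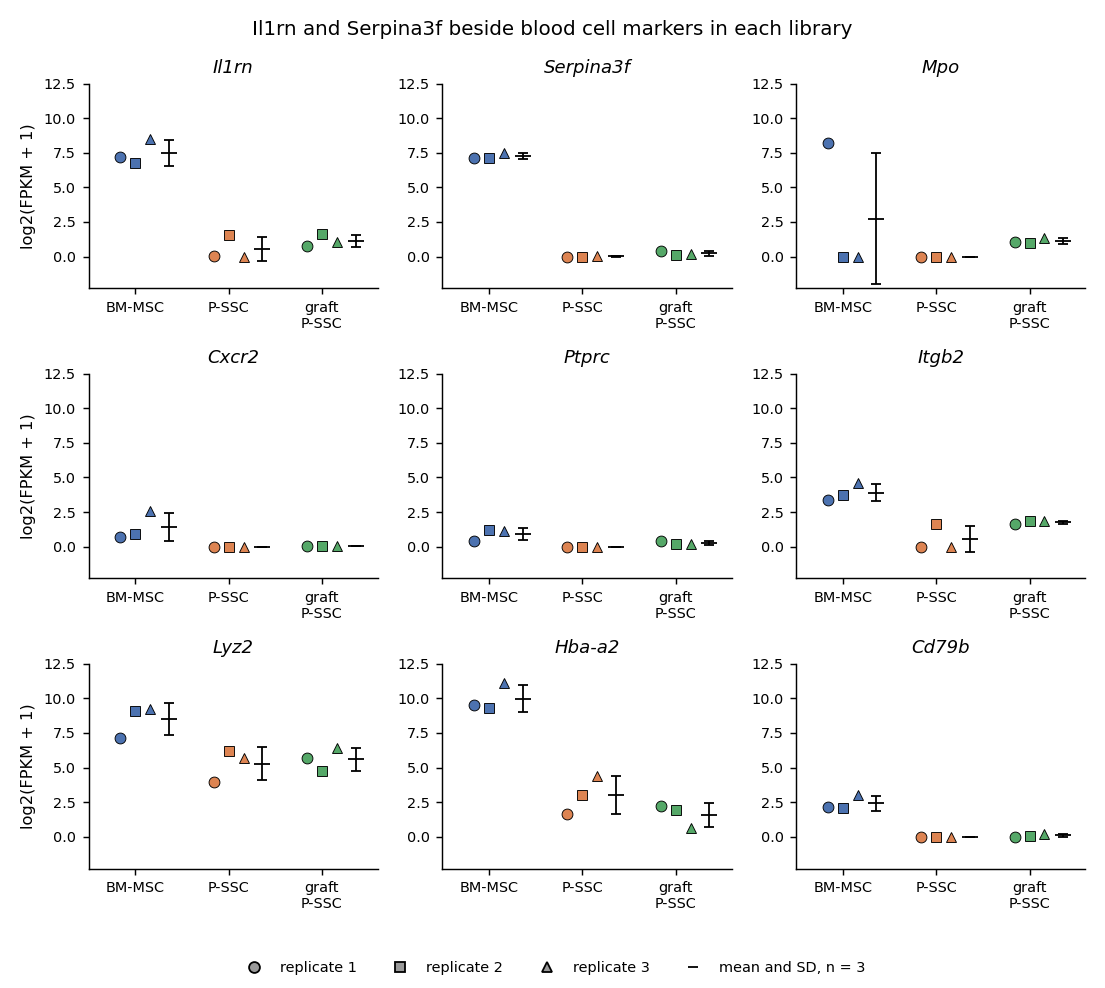
Level of Il1rn and Serpina3f beside 7 blood cell genes as log2(FPKM + 1) on the vertical axis in each library, grouped on the horizontal axis; markers are libraries and bars the mean and SD of 3. Il1rn, Cxcr2, Hba-a2 and Cd79b share their highest library, BM-MSC replicate 3, while Ptprc is highest in BM-MSC replicate 2 (1.353 FPKM) and Mpo is high in BM-MSC replicate 1 alone (292.2 FPKM).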

How the data were processed

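RNA of sorted BM-MSCs, P-SSCs and graft P-SSCs (3 libraries each) was selected with poly-T beads and sequenced by the authors, who mapped the reads to GRCm38 with STAR (2.6.1d). The submitters' processing notes also name CASAVA, fastp and featureCounts (1.5.0-p3). The annotation release is not given in the sources used here. The values the authors deposited are FPKM without further normalization between libraries. The authors compared groups with DESeq2, which needs counts, so limma (3.58.1, R 4.3.3) was used on log2(FPKM + 1) in its place: lmFit with all 9 libraries, contrasts and eBayes with a trend, for the 1948 of 8329 genes with at least 1 FPKM in at least 3 libraries. Groups and replicate numbers came from the titles of the samples.

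Fragments were recovered from FPKM, and genes with a single transcript in GENCODE vM21 gave each library's total. Each FPKM was then multiplied by that total and by the integer part of the gene's mean transcript length, with the units of FPKM divided out. The products were whole numbers, within 0.01 fragment, for 94.8% of the 22678 values above 0. The library totals set the precision, and intervals cover counting error only. P-values measure the spread between 3 libraries a group.

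The members and all gene lists were chosen with earlier results of these data known. Named from each pathway list were at most 6 genes called in any comparison with a group mean of at least 10 FPKM, in order of that mean, with C8a as a partner of C3 below 1 FPKM. From the marker lists the gene of highest mean was named, and the others (Cxcr2, Ptprc, Csf1r, Adgre1, Mrc1, Cd79b, Fga), Tab2, Ahsg, Serpina1a, Serpina1b and the Serpina3 copies were chosen after their values were seen. Alternatives were a pseudocount of 0.1, no filter, median-of-ratios scaling, quantile normalization, the libraries of a comparison alone, a replicate block, no trend and leaving out each library. Chosen after seeing the data were limma voom on the recovered fragments (1831 genes) and levels by the longest transcript. The fit was tested on simulated data. Not every gene picked for its likeness to a member is reported here.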

Additional observations from a re-analysis of the deposited data

How the results depend on the processing

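Counts of genes called for graft P-SSCs minus P-SSCs, P-SSCs minus BM-MSCs and graft P-SSCs minus BM-MSCs were 665, 472 and 816, and each stayed within 1.5 times under all alternatives. Leaving out 1 library gave 450 to 892, 399 to 593 and 555 to 1038, the highest each time without P-SSC replicate 3. For the list genes the counts were 13, 19 and 22, and leaving out 1 library gave 13 to 15, 14 to 18 and 20 to 22. The 19 and the 22 include the genes whose direction against BM-MSCs the filter had fixed. Voom on recovered fragments called 628, 428 and 744 genes. The share of calls that were higher in graft P-SSCs than in P-SSCs was 66.3%, and 50.8% under median-of-ratios scaling or 46.8% under quantile normalization; against BM-MSCs it was 61.4%, 51.6% and 48.9%.

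Same-numbered libraries did not deviate together (r from −0.43 to 0.13 over 9 pairs). With 3 libraries a group these values cannot decide whether the numbers pair the libraries, and the labels do not say. A replicate block gave 621, 441 and 755 calls, and 13, 18 and 21 among list genes.

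Differences of the members depend on the pseudocount where a group is near 0. A pseudocount of 0.1 and voom gave, for graft P-SSCs minus P-SSCs, 8.67 and 10.08 for Saa3, 2.02 and 3.22 for Il1rn and 1.16 and 2.89 for Serpina3f; for P-SSCs minus BM-MSCs, −6.15 and −7.56 for Saa3, −9.20 and −10.50 for Il1rn and −10.38 and −12.83 for Serpina3f; and for graft P-SSCs minus BM-MSCs, −9.22 and −9.94 for Serpina3f. Signs turned for Serpina3f in graft P-SSCs minus P-SSCs under quantile normalization (−0.02) and for C3 in graft P-SSCs minus BM-MSCs without BM-MSC replicate 2 (0.05; leaving out any library gave −0.30 to 0.05). Of 40 calls of named genes under 17 alternatives, 647 of 679 values kept direction and call, 32 lost the call and 0 turned; voom gave no value for 1 call, that of Rela, and 8 calls against BM-MSCs that the filter had fixed are not counted. The cause was not tested.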
